A study of Mus musculus with 2 samples.

Results

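The genes described here make up the ribosome assembly line of the nucleolus and its small nucleolar RNA (snoRNA) hosts. Their unique molecular identifier (UMI) counts were followed through the bone marrow of control and DKO mice. The members were every row of the gene tables whose symbol was Snhg followed by a number, plus a list of snoRNP, nucleolar and RNA polymerase I factors and the host gene Gas5. This gave 48 of 32285 rows, with 19 snoRNA hosts (18 Snhg rows and Gas5) and 29 nucleolar and polymerase factors. Because Snhg4 has 2 rows, the 48 rows carry 47 symbols. Total femoral bone marrow cells of mice 2 months old were captured with Chromium 3′ version 3 chemistry, 1 library for each genotype. How many mice gave each library is not stated. The control, labelled WT, was a Ddx41 fl/fl littermate that lacked VavCre and kept wild-type cGas, so it carries the floxed Ddx41 alleles as well. The DKO was VavCre:Ddx41 fl/fl cGAS-/-, in which the Vav promoter drives Cre in hematopoietic cells and, as known for this line, also in oocytes and endothelial cells. The libraries therefore differ in 2 genes at once, and what belongs to Ddx41 and what to cGAS cannot be told apart.

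In the nucleolus, RNA polymerase I transcribes a long precursor that is cut, folded and modified into the RNAs of the small and large subunits, while ribosomal proteins join on the way. Box C/D snoRNAs guide methylation of the precursor and box H/ACA snoRNAs guide pseudouridylation, each within a particle (snoRNP) of core proteins. Most mammalian snoRNAs are released from introns of host genes, and the spliced host transcripts often encode no protein. In the erythroid lineage these genes are active in progenitors and are shut down as cells condense their nuclei and fill with hemoglobin.

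In the GENCODE M21 annotation (GRCm38), 208 genes annotated as snoRNA lay within the span of Snhg14 on its strand, a rarely counted host. Among the more abundant members, 10 lay within Gas5 (chr1:161034422-161038539, plus strand), 8 within Snhg1, 5 each within Snhg12 and Nop56, 4 within Nop58 and 3 within Ncl. Whether each lay in an intron was not checked. Several factors thus span snoRNA genes as well. A 3′ UMI library counts the polyadenylated host transcript, and the snoRNAs themselves were not measured. Host transcripts of ribosome-related genes often begin with a C followed by a run of pyrimidines (a terminal oligopyrimidine start), which links their translation to growth signals. The promoters of the 4 hosts and 4 factors with the most UMIs over all cells among those with a promoter entry are printed to show this, each 80 bases long with 60 before the RefSeq start and 20 from it on (RefSeq, GRCm38.p6, written 5′ to 3′ on the strand of the gene). Capitals mark a C and the C or T bases that follow it, where a run of at least 4 follows a C within 5 bases before or after the start. A marked run can thus lie before the first transcribed base, and that of Nop10 lies wholly before its RefSeq start.

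Among the hosts, Gas5 starts within chr1:161035106-161035185 (plus strand), Snhg8 within chr3:123508317-123508396 (minus strand), Snhg3 within chr4:132353667-132353746 (minus strand) and Snhg1 within chr19:8723427-8723506 (plus strand).
Gas5: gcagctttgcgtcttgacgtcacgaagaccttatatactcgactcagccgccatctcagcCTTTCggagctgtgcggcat
Snhg8: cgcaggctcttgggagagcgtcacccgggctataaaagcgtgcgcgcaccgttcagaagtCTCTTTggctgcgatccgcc
Snhg3: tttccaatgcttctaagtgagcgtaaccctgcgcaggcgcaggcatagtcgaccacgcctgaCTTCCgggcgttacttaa
Snhg1: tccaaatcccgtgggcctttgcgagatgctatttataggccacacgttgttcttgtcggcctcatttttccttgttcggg
Among the factors, Ncl starts within chr1:86359436-86359515 (minus strand), Nop10 within chr2:112261866-112261945 (plus strand), Ubtf within chr11:102319077-102319156 (minus strand) and Nhp2 within chr11:51619713-51619792 (plus strand). For Ncl the nearest GENCODE start lies 55 bases from this RefSeq start, outside the printed bases.
Ncl: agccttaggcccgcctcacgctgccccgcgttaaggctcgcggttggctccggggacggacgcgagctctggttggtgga
Nop10: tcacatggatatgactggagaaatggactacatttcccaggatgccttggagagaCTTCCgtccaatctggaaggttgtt
Ubtf: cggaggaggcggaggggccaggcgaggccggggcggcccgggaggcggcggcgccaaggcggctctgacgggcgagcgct
Nhp2: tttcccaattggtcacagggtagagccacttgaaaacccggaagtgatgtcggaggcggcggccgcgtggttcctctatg
Of the 47 member symbols, 39 had a promoter entry and Bop1, Fbl, Npm1, Rrp12, Rrs1, Snhg4, Snhg6 and Tcof1 had none. A run of this kind, within 5 bases before or after the start on the gene's strand, was found in 7 of 16 hosts (43.8%) and 4 of 23 factors (17.4%). It was found in 46.0% of 63 ribosomal protein genes and 21.2% of all 27025 genes with an entry. The E-box CACGTG, which reads the same on both strands, lay in the 300 bases of 6 of 39 members (15.4%) and of 8.09% of all genes. These matches describe letters and not bound sites.

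After removal of empty droplets, doublets and cells with over 20% mitochondrial UMIs, 18645 control cells (118408790 UMIs, median 4862 per cell) and 13729 DKO cells (114830668 UMIs, median 6904) were kept, and 75 barcodes occurred in both libraries. Control cells were called here from a matrix of all barcodes, whereas the DKO matrix held 14142 barcodes of at least 500 UMIs. Clusters were named from marker genes into 15 classes, called X-like throughout, and 1 cluster of 567 control and 558 DKO cells stayed unnamed. The members were left out of the clustering. Hemoglobin transcripts took 28.5% of control and 36.3% of DKO UMIs, which lowers every other gene's share. Ddx41 was at 20.2 CPM (UMIs per 1000000) for the control and 8.003 for the DKO, and Cgas at 13.6 and 7.25 CPM. Both targeted genes were thus lower in the library labelled DKO, although 3′ tags may lie outside the deleted exons.

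Since each genotype had 1 library, the genotypes could not be tested against each other. Differences are given as log2 ratios (DKO over control) with an exact conditional binomial 95% interval, which covers counting error only and not the spread between mice. Members were compared where their mean over both libraries was at least 10 CPM, and a member counts as lower or higher where it passed 1.5-fold. CPM of 3′ tags is not divided by transcript length, so levels of different genes are not compared with each other.

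The members followed a common order of classes. The class first named basophil or mast-like held unlike cells. Its cluster (418 control and 171 DKO cells) was led by the basophil genes Prss34 and Mcpt8 and by Angpt1 and Meis1. Clustering at a finer resolution (2.0) parted it into stem and multipotent progenitor-like cells (296 and 104 cells, 70.8% and 60.8% of the class) and basophil or mast-like cells (120 and 66). The 2 parts are given apart here, a step added after the data were seen. The monocyte-like class was mixed too but is given whole here. By cluster, its member sums ran from 1504 to 6070 CPM (control) and from 1424 to 5121 CPM (DKO), with 2117 and 2129 CPM in the largest cluster. The stem and multipotent progenitor-like cells had the highest summed level of all 48 members, 6761 CPM for the control and 7075 for the DKO, and late erythroid-like cells the lowest, 124.7 and 58.2 CPM. Between these lay monocyte-like cells (4772 and 3951 CPM), pro-B and pre-B-like cells (4261 and 3831), the basophil or mast-like cells (3856 and 2985), granulocyte-monocyte progenitor-like cells (3812 and 3689), early erythroid-like cells (3421 and 3558) and, far lower, immature neutrophil-like cells (477.4 and 482.8). Of the 31 members with at least 10 CPM over all cells, 24 (control) and 27 (DKO) had their highest level in the stem and multipotent progenitor-like cells, and 29 and 27 their lowest in late erythroid-like cells.

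**Figure D1:**
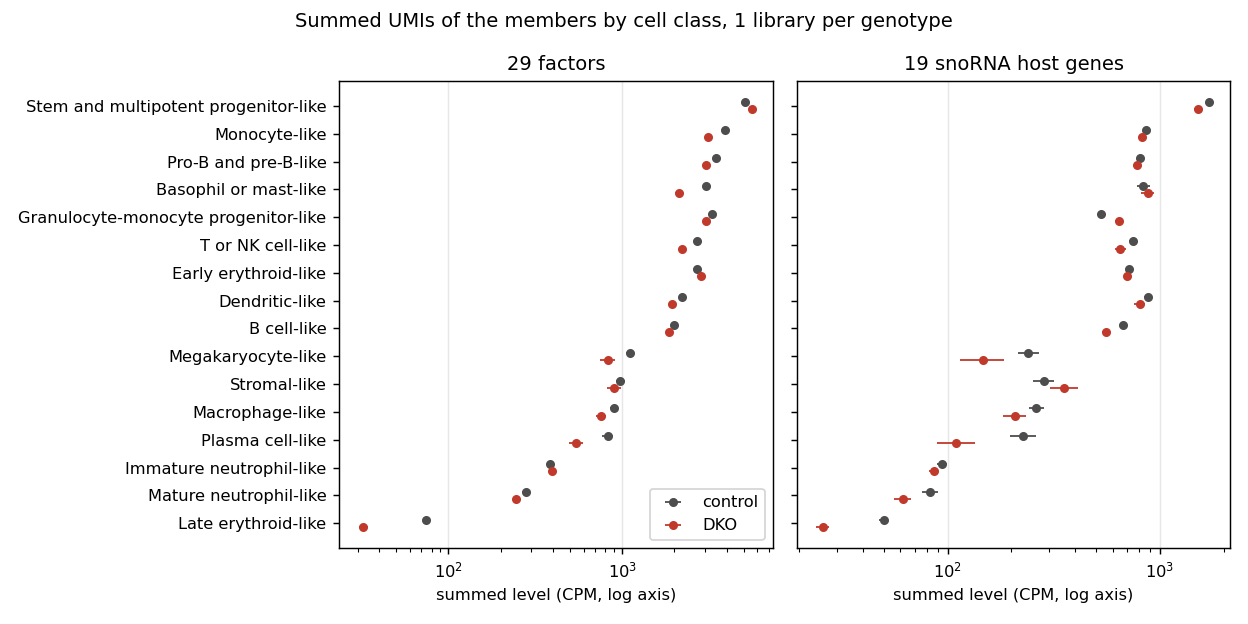
Summed level of the snoRNA hosts and of the nucleolar and polymerase factors (CPM, log axis) in each named cell class for both libraries, with exact Poisson 95% intervals. The class first named basophil or mast-like is drawn as its stem and multipotent progenitor-like and its basophil or mast-like cells, and the mixed monocyte-like class is drawn whole. Both groups of genes are highest in the stem and multipotent progenitor-like cells and lowest in late erythroid-like cells in either library.

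Across the 15 classes, with each mixed class taken whole, the log2 levels of the summed hosts and the summed factors had a Pearson correlation of 0.97 (control) and 0.96 (DKO). Summed members and summed ribosomal protein genes had 0.97 and 0.96, so members and ribosomal proteins were high and low in the same classes. Summed members and 15 cell cycle genes had 0.60 and 0.62. These are descriptions over 15 classes that share a library, its depth and its free RNA. The median member had a correlation of 0.96 (control) and 0.95 (DKO) with the sum of the others. The member least like the rest was Polr1a, the largest catalytic subunit of RNA polymerase I, with 0.51 and 0.49. Its level peaked in mature neutrophil-like cells, at 47.8 CPM (control) and 65.5 CPM (DKO), a class where the summed members were at 362.2 and 306.9 CPM.

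Over all cells, fewer cells of a type and less RNA per cell cannot be told apart. There 29 of the 31 members compared were below 0, where 59.7% of all genes were. The sum of the 48 members went from 2326 to 1777 CPM (log2 ratio −0.39, −0.40 to −0.38). The member median was −0.33, beside −0.085 for all 7531 genes compared. Of the 31, 5 were at least 1.5-fold lower, where 9.24% of all genes were, and 0 were at least 1.5-fold higher, where 2.02% of all genes were.

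The lower 5 were Nop16 (20.8 to 11.0 CPM, −0.92), a large-subunit assembly factor, then Nhp2 (80.8 to 48.5, −0.74), Nop10 (166.1 to 100.6, −0.72) and Gar1 (34.6 to 21.4, −0.69), which are 3 of the 4 core proteins of box H/ACA particles, and Fbl (92.0 to 60.2, −0.61), the methyltransferase of box C/D particles. The remaining H/ACA protein, the pseudouridine synthase Dkc1, went from 41.9 to 34.0 CPM (−0.30). By group, the summed level had a log2 ratio of −0.66 for box H/ACA proteins, −0.43 for box C/D proteins, −0.43 for large-subunit assembly factors, −0.37 for nucleolar phosphoproteins and chaperones, −0.35 for snoRNA hosts and −0.29 for small-subunit processing factors. The RNA polymerase I group stood at 0.12. In it, Polr1a went from 14.1 to 17.4 CPM (0.30, 0.21 to 0.40) and Ubtf, the factor that keeps ribosomal DNA open for polymerase I, from 63.7 to 68.4 CPM (0.10, 0.06 to 0.15).

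The chaperone nucleophosmin (Npm1) was at 623.0 and 442.4 CPM (−0.49), and nucleolin (Ncl) at 330.6 and 288.7 CPM (−0.20). Gas5, whose introns hold box C/D snoRNAs, was at 223.2 and 166.2 CPM (−0.43). The host Snhg8 was at 58.3 and 54.3 CPM (−0.10), and Nop58, a box C/D core protein, at 53.3 and 43.6 CPM (−0.29). Snhg3, host of 2 H/ACA snoRNA genes, was at 45.1 and 35.9 CPM (−0.33). Utp4 (11.0 to 9.58 CPM) and Heatr1 (13.4 to 11.7 CPM), both of the small-subunit processome, stood at −0.20 as well. The cell mixture moved with these values: monocyte-like cells were 8.85% of control and 5.68% of DKO cells, and granulocyte-monocyte progenitor-like cells 2.03% and 1.22%. With DKO cells reweighted to the control's number in each class, the member median was −0.083 beside 0.059 for all genes, the sum −0.16, and 1 member was lower. Without hemoglobin genes in the total, the median was −0.16 and 1 member was lower.

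**Figure D2:**
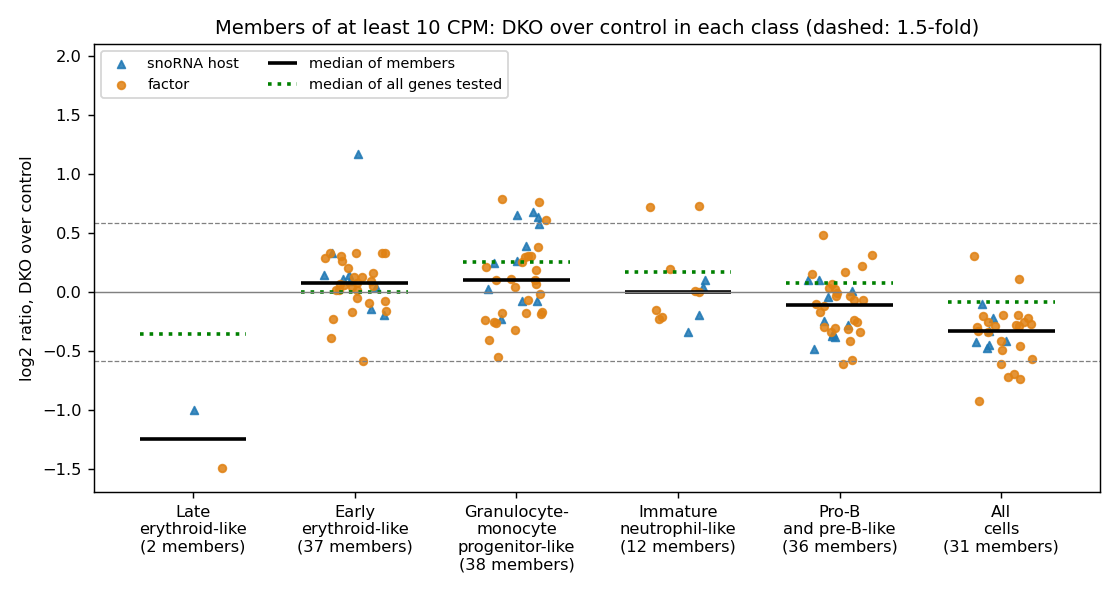
Log2 ratio (DKO over control) of each member with a mean of at least 10 CPM, as a triangle for a snoRNA host and a circle for a factor, in 5 cell classes and over all cells. Solid bars are medians over members, dotted bars medians over all genes compared, and dashed lines 1.5-fold. The member median is the higher of the 2 in early erythroid-like cells and the lower in the other 4 classes and over all cells.

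In early erythroid-like cells (1764 control and 1648 DKO cells), named from markers such as Gata1, Klf1 and Epor, the members as a whole were at nearly the same level in both libraries. Their sum was 3421 CPM (control) and 3558 CPM (DKO) (log2 ratio 0.056, 0.040 to 0.073). The median over the 37 members compared was 0.071, beside −0.0048 over 6317 genes. Intervals lay below 0 for 6 members, above 0 for 12 and across it for 19, counts that were not made over all genes. Of the 37, 1 was at least 1.5-fold lower, where 3.83% of all genes were, and 1 at least 1.5-fold higher, where 1.28% were.

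The lower member was Nop16 (25.5 to 17.0 CPM, −0.59, −0.81 to −0.37). It lay so near the limit that 0 members were lower without hemoglobin genes in the total, after centring on all genes, with the larger barcodes alone, without cells over 10% mitochondrial and after reweighting to the control's hemoglobin bins. Next to it were Nop10 (202.7 to 154.8 CPM, −0.39), Nhp2 (121.8 to 103.9, −0.23), Gas5 (281.2 to 245.1, −0.20) and Las1l (21.1 to 18.7, −0.17), an endonuclease of the large-subunit path. The H/ACA proteins again parted, since Gar1 (42.4 and 42.9 CPM) and Dkc1 (81.3 and 82.1 CPM) were level while Nop10 and Nhp2 were not. The higher member was the host Snhg9, which went from 7.79 to 17.6 CPM (108 and 343 UMIs, log2 ratio 1.17, 0.86 to 1.501), and which reached a mean of 10 CPM only through its DKO level.

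Below Snhg9 at the upper end came Tcof1, Heatr1, Ubtf, Mybbp1a and Snhg6, all at 0.33. Tcof1 encodes treacle, which couples polymerase I to rRNA processing, and went from 19.7 to 24.8 CPM. Ubtf went from 131.4 to 165.2 CPM (0.25 to 0.41), and the polymerase I group summed to 153.4 and 191.7 CPM (0.32, 0.24 to 0.40). Ubtf, which is not a polymerase subunit, held 1822 of the group's 2128 control UMIs. Ncl was at 553.0 and 663.7 CPM (0.26) and Npm1 at 860.0 and 898.7 CPM (0.063). The phosphoprotein and chaperone group stood at 0.16 and the box H/ACA group at −0.22. The remaining members with the most UMIs, Fbl, Snhg8, Snhg3, Snhg1 and Nop58, lay between −0.16 for Fbl (119.2 and 106.7 CPM) and 0.10 for Snhg8 (112.8 and 121.3 CPM). Ribosomal protein genes, the products that these factors assemble, had a median of −0.24 in the same cells. Of these, 71 of 79 were below 0, where 50.4% of all genes were.

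**Figure D3:**
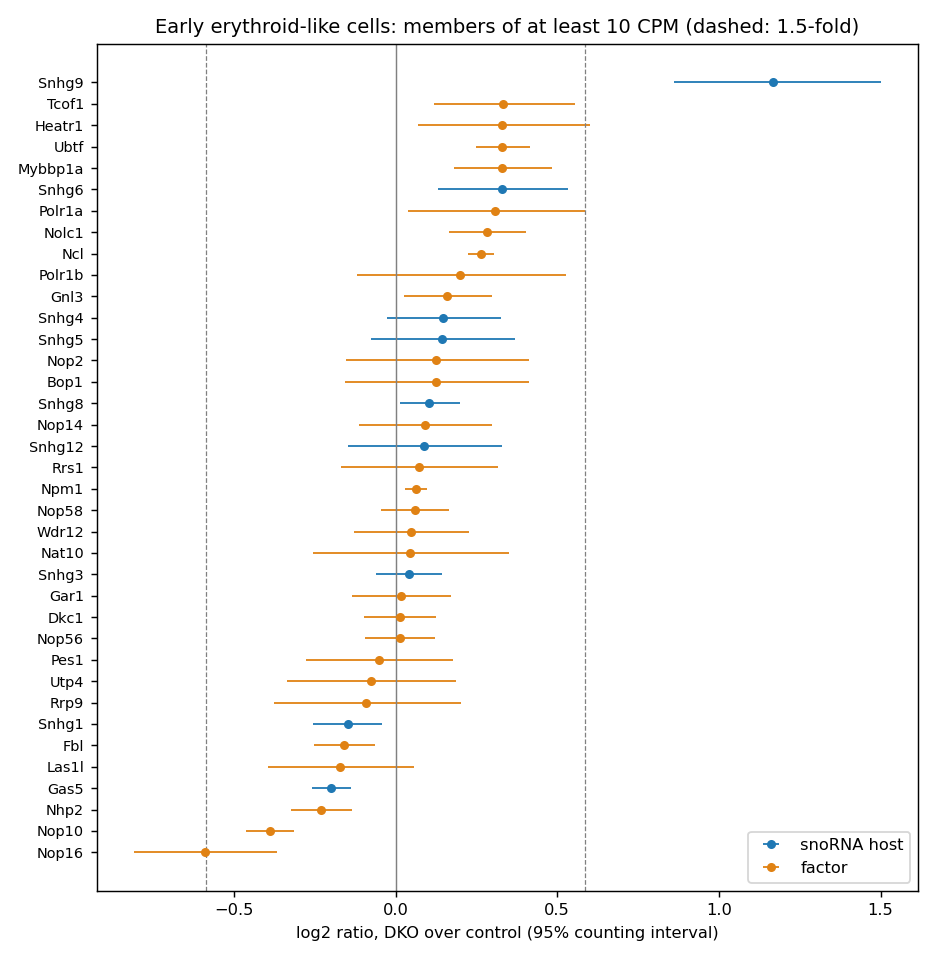
Log2 ratio (DKO over control) with its 95% counting interval for each of the 37 members compared in early erythroid-like cells, ordered by value, with hosts and factors in separate colours and dashed lines at 1.5-fold. Snhg9 is the member furthest above its control level and Nop16 the furthest below.

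The value for this class depended on how its cells were weighted. With every cell given equal weight the member median was −0.25 and 5 members were lower, and with DKO cells reweighted to the control's hemoglobin bins it was 0.34 and 6 were higher. Free RNA was bounded from the neutrophil gene Ngp at no more than 3.23% of the control class and 2.46% of its member UMIs. The summed free-RNA markers, 7 granulocyte and immunoglobulin genes, were at 1550 and 750.3 CPM, all 7 lower in the DKO library.

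To follow the members through maturation, the cells of both erythroid-like classes were divided by the hemoglobin share of their UMIs into 5 stages, which are ranges of a score and not cell types. Below 15% hemoglobin (884 control and 654 DKO cells) the members summed to 6543 CPM (control) and 7997 CPM (DKO) (log2 ratio 0.29, 0.27 to 0.31). From 15 to 40% they summed to 1165 and 1221 CPM (0.068), and from 40 to 75% to 420.3 and 472.2 CPM (0.17). From 75 to 90% (3508 and 1387 cells) the order was the opposite, at 126.3 and 78.3 CPM (−0.69, −0.80 to −0.58), and at 90% or more (1376 and 2581 cells) it was 77.9 and 36.9 CPM (−1.08, −1.24 to −0.92). With the unnamed cluster added, the log2 ratio of the sum from 40 to 75% was −0.0039. The median of all genes compared was 0.11 below 15%, 0.035 from 15 to 40%, 0.27 from 40 to 75%, 0.34 from 75 to 90% and −0.23 at 90% or more. From 40 to 75% the members' sum thus lay below the median gene, whereas the median over the 9 members compared there was 0.34. With the unnamed cluster added, that member median was 0.076 over 8 members, beside 0.12 for all genes. The sum was thus higher in the DKO library below 15% hemoglobin and lower from 75% on, and the difference between stages was not tested. The 90% boundary runs through a dense part of the score, with 1135 control and 812 DKO cells within 1 percentage point of it.

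**Figure D4:**
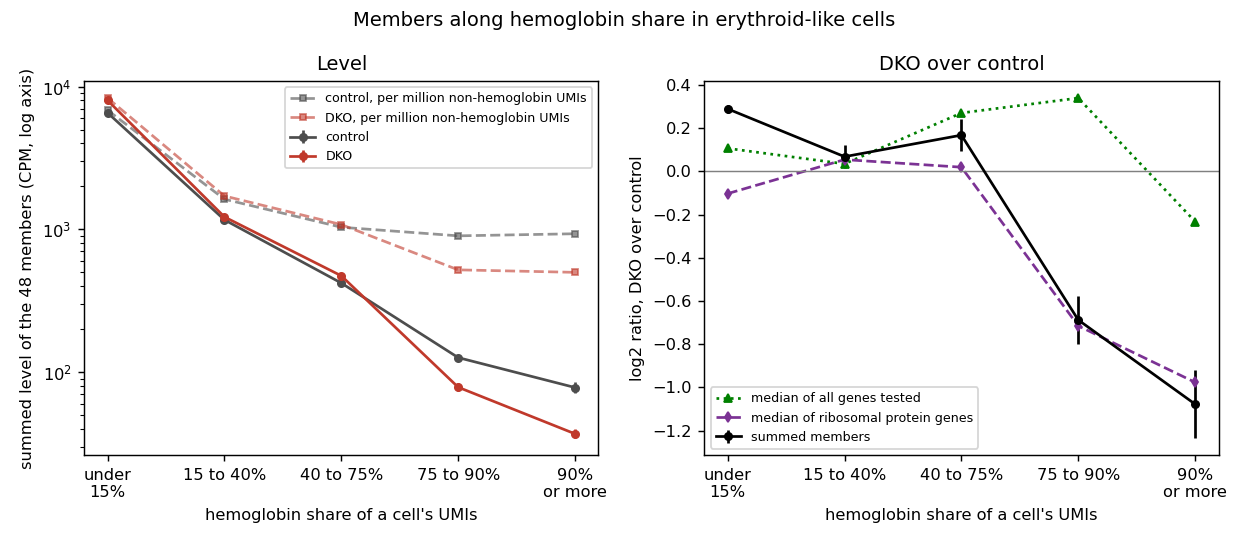
Left, summed level of the 48 members (CPM, log axis) in 5 stages of the hemoglobin share of erythroid-like cells, per total UMIs (solid) and per UMIs of all other genes (dashed). Right, log2 ratio of the sum with its 95% counting interval, beside the medians of all genes compared and of ribosomal protein genes. The sum lies above control below 15% hemoglobin and below it from 75% on, and its value from 40 to 75% falls to −0.0039 with the unnamed cluster added. From 75% on the ribosomal protein median lies below 0 too.

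Hemoglobin itself takes up most of the total in the later stages, so the sum was also set per 1000000 UMIs of all other genes. On this scale it was 6823 (control) and 8305 (DKO) below 15%, 1034 and 1079 from 40 to 75%, 899.9 and 519.9 from 75 to 90%, and 930.9 and 499.5 at 90% or more. The control sum thus stayed near its level of the middle stage, and the DKO sum did not. Cell cycle genes below 15% were level, at 6327 and 6316 CPM. Free-RNA markers differed at most stages, at 2445 and 949.6 CPM below 15%, 981.5 and 489.3 from 75 to 90% and 810.1 and 356.5 at 90% or more, and their part in these results was not tested.

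In the stage below 15%, 37 of 40 members compared were above 0, a share not counted over all genes. Their median was 0.32 beside 0.11 for all genes and −0.10 for ribosomal protein genes. Of the 40, 4 were at least 1.5-fold higher, where 3.67% of all genes were. These were Snhg9 (13.8 to 37.5 CPM, 1.43, 1.08 to 1.81), Rrp12 (11.8 to 19.4, 0.71), which serves in export of pre-ribosomes, Tcof1 (39.0 to 61.6, 0.66) and Snhg6 (45.1 to 68.3, 0.60). Npm1 was at 1771 and 2196 CPM (0.31) and Ncl at 1012 and 1468 CPM (0.54). The 3 members below 0 were Nop16 (55.1 and 43.9 CPM, −0.33), Nop10 (426.3 and 384.5 CPM, −0.15) and Gas5 (497.6 and 497.2 CPM, −0.0011), and for Gas5 the interval crossed 0.

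All but 34 control and 16 DKO cells of the stage below 15% came from 3 clusters, in which the sum had a log2 ratio of 0.40, 0.24 and 0.33. By finer bins it was 0.25 from 0 to 2% hemoglobin, 0.35 from 2 to 5% and −0.0097 from 5 to 15%. Cells of at least 3000 UMIs (320 control, 250 DKO) gave 0.30 and those below 3000 (564 and 404 cells) −0.10, and a mean with every cell weighted alike gave 0.021, so the higher sum lay in the deeper cells. Later in maturation the members did not follow a common path. From 40 to 75% Ubtf was at 65.5 and 118.8 CPM (0.86), where 28.0% of all genes were at least 1.5-fold higher. Nop10, with a mean under 10 CPM, was at 11.98 and 6.05 CPM.

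In late erythroid-like cells (5345 control and 4210 DKO cells, 85.8% and 88.7% hemoglobin), most members were near the end of their range, and the sum of all 48 was 124.7 CPM (control) and 58.2 CPM (DKO) (log2 ratio −1.10, −1.18 to −1.02). Gas5 went from 25.5 to 12.7 CPM (−1.003, −1.18 to −0.83) and Npm1 from 19.1 to 6.79 CPM (−1.49, −1.72 to −1.27). These were the members with a mean of at least 10 CPM, Npm1 only through its control level, and both of the 2 were at least 1.5-fold lower, where 34.8% of the 974 genes compared were, and 0 higher, where 0.513% were. The median of all genes was −0.35 and that of ribosomal protein genes −1.10, with 73 of 75 at least 1.5-fold lower.

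With a mean under 10 CPM, Ncl was at 13.1 and 5.89 CPM, Dkc1 at 8.39 and 4.87 CPM and Nop10 at 6.83 and 2.55 CPM. The hosts Snhg1 (8.598 and 5.95 CPM), Snhg8 (4.54 and 1.97 CPM) and Snhg3 (4.33 and 1.77 CPM) were lower as well. Fbl was at 4.02 and 0.812 CPM (116 and 28 UMIs, −2.27), and Ubtf at 4.75 and 3.83 CPM (−0.31, −0.67 to 0.04), with an interval that crossed 0. The summed polymerase I group, at 5.20 and 4.23 CPM (−0.30, −0.64 to 0.04), was the group nearest to its control level. Of its 150 control UMIs, 137 were Ubtf, so this value says little of the polymerase subunits. The sum was lower in each of the 4 late clusters, with log2 ratios from −1.37 to −0.67.

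Free RNA moved with these values. The summed free-RNA markers, which mature red cell precursors do not make, were at 978.2 and 458.9 CPM (−1.09), among them S100a8 (−1.25), S100a9 (−1.33), Camp (−1.31), Ngp (−1.14) and Ltf (−1.005), while Igkc was at −0.0071. From Ngp, free RNA was at most 2.56% of the control class. The empty control droplets held members at 2602 CPM, so this upper bound equals 53.3% of the members' UMIs in the class, from 11.6% for Snhg10 to 100% for 9 of the 45 members with a UMI, among them Nop58. For the 10 members with at least 100 control UMIs it ran from 16.1% for Snhg1 and 22.8% for Gas5 to 72.8% for Npm1 and 92.8% for Ncl. For DKO cells the empty droplets were not analysed here. The part of free RNA in the lower DKO level was not tested. With DKO cells reweighted to the control's hemoglobin bins, the member median was −0.82 over 3 members and the sum −0.73.

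Granulocyte-monocyte progenitor-like cells (379 and 167 cells), marked by Mpo and Elane, had box H/ACA proteins at a lower level in the DKO library, and hosts whose median, 0.26, was near that of all genes. The 38 members compared had a median of 0.10, beside 0.25 for all 7476 genes, and their sum was 3812 and 3689 CPM (−0.047, −0.077 to −0.018). Of them, 0 were at least 1.5-fold lower, where 2.59% of all genes were, and 6 were higher, where 24.6% were. The 6 were Polr1a (11.9 to 20.5 CPM, 0.79), Polr1b (8.90 to 15.1, 0.77), its partner as the next largest polymerase I subunit, the hosts Snhg9 (0.67), Snhg20 (0.65) and Snhg5 (0.63), and Heatr1 (17.4 to 26.4, 0.61). Polr1b and Snhg9 (9.50 to 15.1 CPM) reached a mean of 10 CPM only through their DKO level. Snhg8 lay just under the 1.5-fold limit (70.8 to 105.6 CPM, 0.58). After centring on the median of all genes, 0 members were higher and 2 lower. The median was −0.15 after this centring and −0.12 at either other clustering resolution, where 1 member was higher.

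At the lower end were Nhp2 (199.9 to 135.8 CPM, −0.56), Nop10 (439.2 to 330.9, −0.41), Nop14 (28.0 to 22.3, −0.32), Wdr12 (65.9 to 54.9, −0.26) and Nop16 (46.7 to 39.0, −0.26). Wdr12 acts with Pes1 and Bop1 in large-subunit maturation, and Nop14 in that of the small subunit. The host group summed to 528.0 and 639.0 CPM (0.28, 0.20 to 0.35), led by Gas5 (197.6 to 258.4 CPM, 0.39), whereas box H/ACA proteins summed to 771.1 and 598.0 CPM (−0.37, −0.44 to −0.30). Npm1 was at 1081 and 956.3 CPM (−0.18) and Ncl at 547.6 and 574.2 CPM (0.069). Of the other members with the most UMIs, Fbl (−0.18) and Gar1 (−0.19) were below 0 and Nop58 (0.10) and Ubtf (0.19) above it.

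Immature neutrophil-like cells (1670 and 1372 cells), marked by Camp, Ltf and Ngp, held few member UMIs and their sum was level, at 477.4 and 482.8 CPM (0.016, −0.033 to 0.065). The median over 12 members was 0.0014, beside 0.17 for all 6678 genes. Of the 12, 0 were at least 1.5-fold lower, where 1.39% of all genes were, and 2 higher, where 4.96% were. These were Nop56 (7.73 to 12.9 CPM, 0.73, 0.38 to 1.09), a box C/D core protein, and Polr1a (15.5 to 25.7 CPM, 0.72, 0.48 to 0.97). After centring on the median of all genes, 0 members were higher and the sum was −0.15. Nop56 reached a mean of 10 CPM only through its DKO level, and it is uncertain, since 53.0% of the 90-base stretches at its 3′ end also occur in other genes. Ubtf (43.6 to 49.7 CPM, 0.19), Snhg6 (12.3 to 13.2, 0.10) and Snhg8 (16.0 to 16.5, 0.042) followed. The lowest were Snhg3 (11.6 to 9.17 CPM, −0.34), Nop10 (29.4 to 25.1, −0.23), Nop58 (11.7 to 10.1, −0.21), Gas5 (26.8 to 23.4, −0.20) and Nhp2 (12.8 to 11.5, −0.15). Npm1 (80.5 and 80.4 CPM) and Ncl (97.1 and 97.5 CPM) were level.

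In pro-B and pre-B-like cells (965 and 726 cells), marked by Vpreb1 and Rag1, the summed members were slightly lower in the DKO library. The sum was 4261 and 3831 CPM (−0.15, −0.18 to −0.13). Of the 36 members compared, 25 were below 0, where 41.1% of all genes were. The member median was −0.11 beside 0.075 for all 8132 genes. Intervals lay below 0 for 10 members, above 0 for 1 and across it for 25, counts that were not made over all genes. Of the 36, 1 was at least 1.5-fold lower, where 2.66% of all genes were, and 0 higher, where 3.66% were. The member was Gar1 (66.3 to 43.3 CPM, −0.61, −0.87 to −0.36), and Nhp2 fell just short of the limit (136.6 to 91.6 CPM, −0.57). Box H/ACA proteins together were at 538.0 and 399.5 CPM (−0.43, −0.51 to −0.34), and all 4 were below 0.

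Next came Snhg20 (14.9 to 10.6 CPM, −0.49), Nop16 (30.4 to 22.7, −0.42) and Snhg15 (11.8 to 9.05, −0.38). At the upper end were Nop2, an rRNA methyltransferase (10.3 to 14.4 CPM, 0.48, −0.06 to 1.05), Polr1a (16.9 to 20.99, 0.31), Tcof1 (71.6 to 83.2, 0.22), Bop1 (0.16) and Utp4 (0.15), and of these 5 intervals that of Tcof1 lay above 0. Npm1 was at 1168 and 978.6 CPM (−0.26), Ncl at 727.9 and 694.8 CPM (−0.067) and Nop10 at 270.7 and 213.7 CPM (−0.34). Fbl stood at −0.30, and its box C/D partners Nop58 (−0.039) and Nop56 (0.036) near 0. Gas5 was at 375.8 and 377.5 CPM (0.0066), Snhg8 at 114.0 and 122.1 CPM (0.098) and Ubtf at 118.6 and 124.0 CPM (0.063). Gas5 and Snhg8 were not typical of the hosts, whose median over 10 members was −0.26 with 7 below 0, beside −0.087 for the factors.

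Of the classes outside the main comparisons, monocyte-like cells held the most member UMIs. There 31 of 37 members were below 0, where 39.5% of all genes were (median −0.28, all genes 0.095). Of the member intervals, 25 lay below 0, a count that was not made over all genes. At least 1.5-fold lower were 4 members, where 1.97% of all genes were. These were Nop16 (50.8 to 28.3 CPM, −0.84), Gar1 (76.4 to 46.2, −0.72), Rrp9 (17.6 to 11.3, −0.64), a protein of a box C/D particle, and Nhp2 (185.8 to 122.2, −0.60). Gas5 was at 418.0 and 436.9 CPM (0.062) in the same cells. The class joined clusters in unlike shares. One of 659 and 261 cells, led by Gria3 and Nrg1 and named partly as granulocyte-monocyte progenitor-like at the finer resolution, made up 39.9% of its control and 33.5% of its DKO cells and had a member sum of 6070 and 5121 CPM (−0.25). In the largest, of 920 and 475 cells led by S100a4 and Fn1, the sum was 2117 and 2129 CPM (0.0082, −0.029 to 0.046). In the stem and multipotent progenitor-like cells, where the members were at their peak, the median over 41 members was 0.13 beside 0.075 for all genes and the sum stood at 0.065 (0.037 to 0.094). In the basophil or mast-like cells the median over 36 members was −0.40 beside 0.015, the sum stood at −0.37 (−0.44 to −0.30), and 11 members were at least 1.5-fold lower, where 10.7% of all genes were.

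Set side by side, with each mixed class taken whole, the box H/ACA sum had a log2 ratio below 0 in all 15 named classes. It ran from −1.13 in late erythroid-like to −0.045 in macrophage-like cells. Nop10 had a ratio below 0 in 14 of them, with macrophage-like cells the exception (116.9 and 121.2 CPM). The box H/ACA sum was not computed for the parts of the mixed classes. The H/ACA intervals lay below 0 in 13 of the 15 and crossed it in macrophage-like and stromal-like cells. Other genes shared this direction. The ribosomal protein median was below 0 in all named classes except granulocyte-monocyte progenitor-like cells (0.089). That of all genes with transcripts under 2000 bases was below 0 in all except stromal-like cells (0.054). In erythroid-like cells below 15% hemoglobin, Gar1 (0.29), Dkc1 (0.20) and Nhp2 (0.014, interval across 0) were above 0 and Nop10 (−0.15) below. The RNA polymerase I sum was above 0 in 11 classes, but its interval lay above 0 in 4 and crossed 0 in the other 11. In both erythroid-like classes this sum was mostly Ubtf. All classes come from the same 2 libraries and are not replicates of each other. Snhg9 reached a mean of 10 CPM in 2 classes, early erythroid-like and granulocyte-monocyte progenitor-like cells, in both only through its DKO level. It was also higher in T or NK-like cells (4.21 to 9.47 CPM, 1.13, 0.04 to 2.36) and lower in late erythroid-like cells (1.91 to 1.33 CPM, −0.51, −1.11 to 0.08). Snhg9 (chr17:24719531-24719965, minus strand) is annotated with 1 transcript of 183 bases and holds Snora78 within its span. Its exons overlap those of the ribosomal protein gene Rps2 on the opposite strand by 14 bases.

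Transcript length moved with the ratios. Over all cells, the log2 ratio of all genes compared had a Spearman correlation of 0.52 with the length of the longest annotated transcript (n = 7528 genes), and that of the members 0.48 (n = 31), a description across genes that share both libraries. Members with transcripts under 2000 bases had a median of −0.49 (10 members) and longer ones −0.29 (21 members), beside −0.42 and −0.012 for all genes. In early erythroid-like cells the correlation was 0.50 for all genes and 0.21 for the 37 members. Nop10, Nhp2 and Gar1, which encode small proteins, belong to the short group. After centring within 5 bins of length, the member median was −0.21 over all cells and −0.77 in late erythroid-like cells. The part of length in these differences was not tested.

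**Figure D5:**
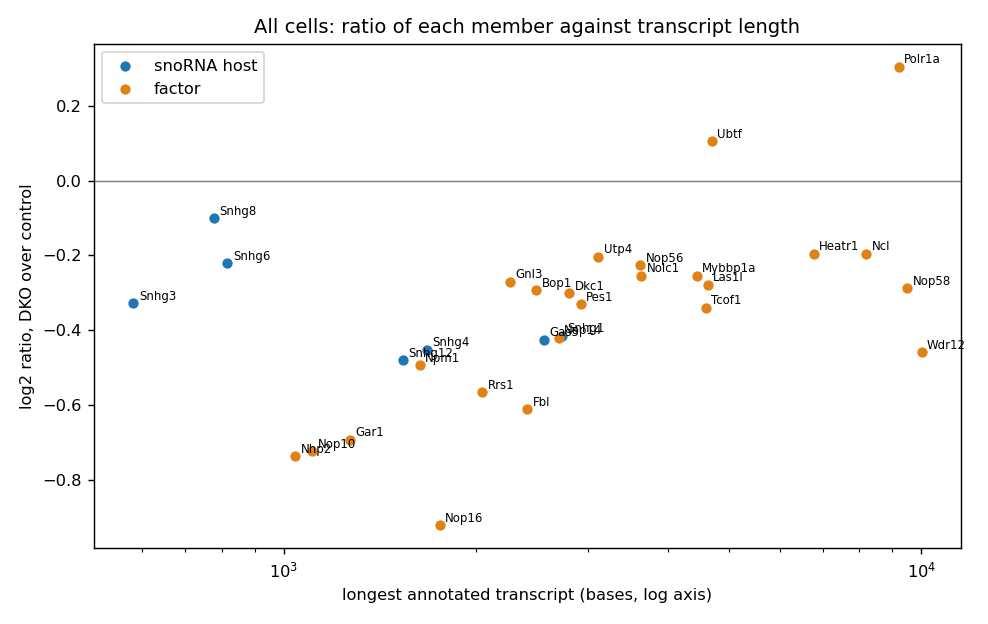
Log2 ratio of DKO over control over all cells against the length of the longest annotated transcript (bases, log axis) for the 31 members compared, with hosts and factors in separate colours. Nop10, Nhp2 and Gar1 lie low among the short transcripts and Polr1a and Ubtf high among the long, while the short hosts Snhg8 and Snhg6 lie above them.

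A wider list of 111 further ribosome biogenesis genes was measured beside the members. Over all cells 21 of 87 compared were at least 1.5-fold lower (9.24% of all genes) and 0 higher (2.02% of all genes), with a median of −0.45. The lowest were Bud23 (23.8 to 13.3 CPM, −0.84), an rRNA methyltransferase, Rrp15 (22.6 to 12.8, −0.82) and Mrto4 (40.6 to 23.7, −0.77), and the highest the GTPase Bms1 (20.8 to 21.6, 0.051), Gnl3l (0.011) and the AAA ATPase Mdn1 (−0.012). In early erythroid-like cells 0 of 91 were lower (3.83% of all genes) and 1 higher (1.28%), Utp20 (10.2 to 15.9 CPM, 0.63), with Bms1 (0.51) and Urb2 (0.49) after it and Imp3 (83.9 to 59.3 CPM), Exosc4 and Exosc7 lowest at −0.50. The list as a whole was at 3642 and 3352 CPM there (−0.12).

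In granulocyte-monocyte progenitor-like cells 6 of 98 were lower (2.59% of all genes) and 4 higher (24.6%), with Mrto4 (−0.85), the snoRNP assembly ATPase Ruvbl2 (−0.73) and Wdr46 (−0.73) lowest and Nol9 (1.14), Mdn1 (1.07) and the polymerase I initiation factor Rrn3 (0.79) highest. In immature neutrophil-like cells 0 of 57 were lower (1.39% of all genes) and 2 higher (4.96%), with Tex10 (0.79), Gnl3l (0.60) and Bms1 (0.54) at the top and Eif6 (−0.47), Pak1ip1 (−0.46) and Exosc4 (−0.38) at the bottom. In pro-B and pre-B-like cells 4 of 99 were lower (2.66% of all genes) and 1 higher (3.66%), with Bud23 (−0.69), Rpp30 (−0.66) and Dimt1 (−0.65) lowest and Mdn1 (0.64), Noc3l (0.42) and Exosc2 (0.39) highest. No gene of the list reached 10 CPM in late erythroid-like cells, where the list summed to 129.4 and 60.3 CPM (−1.10). Myc, a transcription factor known to drive these genes, was at 32.4 and 31.2 CPM in early erythroid-like cells (−0.053) and 21.98 and 15.4 CPM over all cells (−0.51).

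The remaining members were rarely counted. All 48 had at least 1 UMI in control cells and 47 in DKO cells, where Snhg7os had 0 UMIs (4 in the control). Snhg10, Snhg14, Snhg16, Snhg7os and the Snhg4 row ENSMUSG00000117694 had a mean of 10 CPM over both libraries in 0 of the 15 classes, and over all cells Snhg16 was at 3.48 and 2.12 CPM (−0.72), Snhg10 at 1.74 and 1.92 CPM and Snhg11 at 0.101 and 0.174 CPM. Counts are uncertain where genes share sequence: Snhg3 shares 135 exonic bases with Rcc1 on the same strand, Snhg17 shares 132 with Gm23925, 23.4% of the 3′ stretches of Wdr12 occur elsewhere, and all 3′ stretches of that Snhg4 row do. For such rows a difference may belong to the other gene.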

How the data were processed

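Femoral bone marrow cells of control and DKO mice, 2 months old, were sequenced as 1 Chromium 3′ library for each genotype. The deposited matrices hold raw UMI counts per gene and barcode that the authors made with Cell Ranger (version 7.1.0 in the file headers, build mm10 in the submitters' processing notes). Whether intronic reads were counted, and which exons of Ddx41 and Cgas were removed, is not given in the sources used here. Of 32285 gene identifiers, 32158 occur in GENCODE M21.

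Control cells were called from 1518290 barcodes: 9663 lay above an order-of-magnitude threshold set from the 3000 largest barcodes, and 9585 of 10284 smaller ones with 500 UMIs or more differed from the empty-droplet profile, built from droplets of 100 UMIs or fewer, in a Monte Carlo test (10000 draws, FDR 0.01). Left out were 174 control and 215 DKO cells for a mitochondrial share over 20%, and 429 and 198 as Scrublet doublets. Cells were clustered without the members and the targeted genes (2000 variable genes, 30 components, 15 neighbors, Leiden resolution 1), and the 30 clusters were named from marker lists, with at least 3 raised markers required.

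For each class, the UMIs of a library were added up, expressed as CPM and set against each other as log2 ratios after 1 count was added. Intervals are exact (Poisson for levels, conditional binomial for ratios). In each main comparison the text names the 10 members with the most UMIs, the 5 lowest and 5 highest ratios among those of at least 10 CPM, and 3 at either end of the wider list. Other named genes were chosen after their values were seen. The members and gene lists were chosen with earlier results of these data known. On simulated early erythroid-like libraries (6314 genes) the direction of all 2-fold changes was recovered and 95.5% of intervals covered the true value. For late erythroid-like libraries (967 genes) 94.7% did so. Of the simulated 2-fold changes, 97.5% in early and 80.5% in late erythroid-like libraries passed the 10 CPM filter and the 1.5-fold limit. The simulation drew Poisson counts alone, so it checks the computation and holds no spread between mice, free RNA or difference in cell mixture. Other scalings, filters, cell calls, doublet and mitochondrial limits, resolutions and weightings were tried. Length-centred ratios, the class reweighting, the division of 2 classes by their clusters and the stage alternatives were added after the data were seen. Clustering used scanpy 1.11.5 with leidenalg 0.10.2, statistics scipy 1.17.1 and numpy 2.4.6, and figures matplotlib 3.10.9, all under Python 3.11.15.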

Additional observations from a re-analysis of the deposited data

Results flagged for a closer look

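The summed member level went opposite ways at the ends of erythroid maturation. In erythroid-like cells below 15% hemoglobin its log2 ratio (DKO over control) was 0.29, and at 90% hemoglobin or more it was −1.08. Each genotype had 1 library, and the difference between these stages was not tested.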

How the results depend on the processing

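The minimum of 10 CPM left 2 members in late erythroid-like cells, most of whose UMIs were hemoglobin. Intervals cover counting error only, and the spread between mice is unknown. No paired analysis was possible because each genotype has 1 library, and no replicate was left out for the same reason. Control cells were called from all barcodes and DKO cells were not, and hemoglobin shares, class shares and free RNA moved with genotype. Of 372 recomputed values for 29 results, 98 moved by more than the counting error of the reported value or, for a count of members, by over 1.5 times. The cause was not tested. The settings on transcript length, class reweighting, the unnamed cluster and, for hemoglobin stages, hemoglobin-free totals and equal cell weights were chosen after seeing the data.

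The values that moved follow as the median ratio over members (median), the log2 ratio of the summed level (sum) and the numbers of members past the fold limit (lower, higher). Without hemoglobin genes in the total, there was a median of −0.84, a sum of −0.76 and 8 lower in late erythroid-like cells, a sum of 0.13 and 0 lower in early erythroid-like cells, a median of −0.16, a sum of −0.22 and 1 lower in all cells, a sum of 0.061 in erythroid-like cells of 40 to 75% hemoglobin, and a sum of −0.90 in erythroid-like cells of 90% or more hemoglobin. After centring on the median of all genes, there was a median of −0.89 and a sum of −0.74 in late erythroid-like cells, 0 lower in early erythroid-like cells, a sum of −0.30, 2 lower and 0 higher in granulocyte-monocyte progenitor-like cells, a sum of −0.15 and 0 higher in immature neutrophil-like cells, a sum of −0.23 and 2 lower in pro-B and pre-B-like cells, and a median of −0.24 and a sum of −0.30 in all cells. Without ribosomal protein genes in the total, there was a sum of 0.022 in early erythroid-like cells, 2 lower in pro-B and pre-B-like cells, and a sum of −0.43 in all cells. With a minimum mean of 5 CPM, there was a median of −1.003 and 4 lower in late erythroid-like cells, and 1 lower in immature neutrophil-like cells. With a minimum mean of 20 CPM, which no member reached in late erythroid-like cells, there were 0 lower in late erythroid-like cells, 0 higher in early erythroid-like cells, 1 higher in granulocyte-monocyte progenitor-like cells, and 1 higher in immature neutrophil-like cells. With no filter other than 1 UMI, there were 33 lower and 2 higher in late erythroid-like cells, 2 lower in early erythroid-like cells, 10 higher in granulocyte-monocyte progenitor-like cells, 7 lower and 4 higher in immature neutrophil-like cells, 2 lower and 1 higher in pro-B and pre-B-like cells, and 8 lower and 1 higher in all cells. With barcodes above the order-of-magnitude threshold alone, there were 0 lower in early erythroid-like cells, a sum of −0.21 and 3 lower in pro-B and pre-B-like cells, and a median of −0.40 and a sum of −0.44 in all cells. Without cells over 10% mitochondrial, there were 0 lower in early erythroid-like cells. With doublets kept, there was a sum of −0.10, 0 lower and 1 higher in pro-B and pre-B-like cells. At resolution 0.5, there was a median of −0.90 and a sum of −0.82 in late erythroid-like cells, a sum of 0.037 in early erythroid-like cells, a sum of −0.17 and 1 higher in granulocyte-monocyte progenitor-like cells, a sum of −0.043 and 1 higher in immature neutrophil-like cells, and 0 lower in pro-B and pre-B-like cells. At resolution 2.0, there was a median of −0.96 and a sum of −0.97 in late erythroid-like cells, a sum of −0.18 and 1 higher in granulocyte-monocyte progenitor-like cells, a sum of −0.038 in immature neutrophil-like cells, and 2 lower in pro-B and pre-B-like cells. With every cell weighted alike, there was a median of −0.99 and a sum of −0.98 in late erythroid-like cells, a median of −0.25, a sum of −0.21 and 5 lower in early erythroid-like cells, 4 lower in granulocyte-monocyte progenitor-like cells, 1 higher in immature neutrophil-like cells, 2 lower in pro-B and pre-B-like cells, a sum of −0.42 in all cells, a sum of 0.021 in erythroid-like cells of under 15% hemoglobin, a sum of 0.13 in erythroid-like cells of 15 to 40% hemoglobin, and a sum of 0.26 in erythroid-like cells of 40 to 75% hemoglobin. With DKO cells reweighted to the control's hemoglobin bins, there was a median of −0.82 and a sum of −0.73 in late erythroid-like cells, and a median of 0.34, a sum of 0.32, 0 lower and 6 higher in early erythroid-like cells. With DKO cells reweighted to the control's classes, there was a median of −0.083, a sum of −0.16 and 1 lower in all cells. After centring within bins of transcript length, there was a median of −0.77 and a sum of −0.62 in late erythroid-like cells, a sum of 0.14 in early erythroid-like cells, a sum of −0.12 in pro-B and pre-B-like cells, and a median of −0.21 and a sum of −0.19 in all cells. At a 2-fold limit, there were 0 lower in early erythroid-like cells, 0 higher in granulocyte-monocyte progenitor-like cells, 0 higher in immature neutrophil-like cells, 0 lower in pro-B and pre-B-like cells, and 0 lower in all cells. With the unnamed cluster added, there was a sum of −0.0039 in erythroid-like cells of 40 to 75% hemoglobin. The sign of the median or sum differed from the value reported under 1 or more settings for 6 results: the median and sum in early erythroid-like and in immature neutrophil-like cells, the median in granulocyte-monocyte progenitor-like cells (−0.15 after centring on all genes, −0.12 at either other resolution and −0.039 after centring by length), and the stage from 40 to 75% hemoglobin.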
